A study of Homo sapiens with 4 samples.

Results

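The p53 target gene set holds 32 human genes that are activated directly by the transcription factor p53, listed by name as well-known direct targets. All 32 genes had a probe on the array, out of 17721 genes that could be named, and 31 of them were well above background on all 4 arrays, out of 12969 such genes. Single-color arrays were hybridized with total RNA from the human pre-B leukemia cell line Nalm-6, grown without oxidative stress: wild-type cells, their Arp5 KO and Arp8 KO derivatives, and a sample labelled Arp8 overexpression, each on 1 array. Arp5 and Arp8 are actin-related proteins of the INO80 chromatin remodeling complex. In the KO cells the locus of the one or the other had been disrupted by homologous recombination, and the design text describes the Arp8 overexpression as driven by a tetracycline-regulated (Tet-Off) system in connection with the Arp8 KO cells. All arrays lay on 1 slide and came from 1 scan. Since no genotype was repeated, differences have no replicate check, no p-value is given, and the number of arrays limits the precision. Each KO stands for a single cell line, so the genotype and the line cannot be told apart.

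The protein p53 is kept at a low level by the ubiquitin ligase MDM2. Damaged DNA and other stress release it, and it then binds pairs of short half-sites in or near its target genes and raises their transcription. The targets halt the cell cycle, feed back on p53 itself, trigger apoptosis, repair DNA and adjust metabolism, and in lymphoid cells the apoptotic targets are among the best known. Repression of cell cycle genes follows indirectly, through p21 and the DREAM complex.

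The sequence that p53 reads was searched in RefSeq promoter windows of assembly GRCh38.p14, which reach from 250 bases before to 50 bases after a transcription start. The p53 half-site consensus, 10 bases long and its own reverse complement, was scanned so that both strands are covered, and a site is 2 half-sites side by side, 20 bases in all. Windows were found for 26 members and not for *GADD45A*, *FBXO22*, *TP53INP1*, *PHLDA3*, *TNFRSF10B* and *RRM2B*. A site with at most 2 mismatches was present in 5 of 37 member windows, belonging to *AEN*, *DDB2*, *FAS* and *MDM2*, against 0.649% of the 35116 windows of all genes. With at most 3 mismatches it was present in 10 member windows of 9 genes, against 5.20% of all windows, and an exact half-site was present in 7 member windows, against 6.63%. The 4 members with the closest matches are printed first. *SESN1* and *PMAIP1*, with 3 mismatches each, follow because they lay far apart in Arp8 KO cells, and these 2 were chosen after their values were seen. Each line runs 5′ to 3′ on the strand of the gene, and the capitals mark the 20-base site. A match is a description of the letters and does not show binding in these cells.
DDB2, chr11:47214949-47215003, + strand, 1 mismatch, first base of the site at -5 relative to the start: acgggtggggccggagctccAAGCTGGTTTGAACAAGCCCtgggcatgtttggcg
AEN, chr15:88621286-88621345, + strand, 2 mismatches, at -34: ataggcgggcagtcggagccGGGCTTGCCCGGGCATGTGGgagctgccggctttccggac
FAS, chr10:88991289-88991348, + strand, 2 mismatches, at -122: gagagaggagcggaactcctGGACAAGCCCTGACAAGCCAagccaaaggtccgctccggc
MDM2, chr12:68808903-68808962, + strand, 2 mismatches, at -94 and -101 from 2 start sites: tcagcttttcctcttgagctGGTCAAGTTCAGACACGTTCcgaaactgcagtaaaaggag
SESN1, chr6:109008998-109009057, - strand, 3 mismatches, at -49: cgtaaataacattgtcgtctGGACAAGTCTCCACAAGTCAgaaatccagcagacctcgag
PMAIP1, chr18:59899791-59899850, + strand, 3 mismatches, at -185: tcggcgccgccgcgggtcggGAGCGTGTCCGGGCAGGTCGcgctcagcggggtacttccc

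The targeted genes were examined first, because they bear on the labels. *ACTR5*, the gene for Arp5, had 1909 units in wild-type cells, 65.3 after Arp5 KO, 1849 after Arp8 KO and 2088 on the array labelled Arp8 overexpression. Units are the processed signal of the scanner software on a linear scale, before scaling between arrays. Probes differ in how strongly they bind, so signals of different genes can be ranked only roughly. *ACTR8*, the gene for Arp8, had 1532, 1489, 1139 and 1123 units in the same order of arrays. Its ratio of Arp8 KO to wild-type was 0.735-fold, where *ACTR5* was 0.0347-fold of wild-type after Arp5 KO, so the mRNA leaves the Arp8 KO label open. It was also not higher on the array labelled Arp8 overexpression, and both arrays are named by their labels throughout. Where the probes of *ACTR8* lie relative to the disrupted part was not examined.

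The question put to each array was whether the p53 targets were expressed at another level than in wild-type cells. Log2 ratios were taken between gene levels scaled to the 75th percentile of each array, and a gene was counted as higher or lower when it was beyond 2-fold, or beyond 1.5-fold for a wider count. Probes printed in several spots show the technical error of such a ratio. For Arp8 KO over wild-type its median SD was 0.0291 over the 145 repeated probes above 500 units, 0.0562 over the 37 with 50 to 500 units, and 0.448 over the 82 dimmer ones. Of the members 27 had a mean signal of 500 units or more, although *FBXO22*, *RRM2B* and *SESN1* among them were dimmer than that on 1 or 2 arrays, and the median of the mean signal was 1895 units for the members and 1194 units for all genes. Variation between cultures is not part of this error.

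The targets were higher in Arp8 KO cells. In the comparison of Arp8 KO with wild-type cells, 29 of 31 members had a ratio above 0, against 54.1% of all genes, and the median log2 ratio was 0.65 against 0.03. Beyond 1.5-fold, 16 members were higher, against 5.12% of all genes, and 0 were lower, against 5.10%. Beyond 2-fold, 6 members were higher, against 1.46%, and 0 lower, against 1.42%. These 6 were *PHLDA3*, *BBC3*, *TNFRSF10B*, *SESN1*, *TP53INP1* and *CDKN1A*. The 2 members with a ratio below 0 were *BAX*, at -0.09, and *PMAIP1*, at -0.03.

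In Arp5 KO cells the members lay close to all genes. There 18 of 31 members lay above 0, against 53.7% of all genes, with a median log2 ratio of 0.09 against 0.02. Beyond 1.5-fold, 1 member was higher, *PLK3*, against 3.99% of all genes, and 1 was lower, *FAS*, against 3.32%. The *FAS* ratio of -0.59 lay at the threshold and was -0.49 with the normexp background correction, which left 0 lower. Beyond 2-fold, 0 were higher and 0 lower, against 0.979% and 0.972%. Both KO comparisons use the same wild-type array, so they are not independent of each other.

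The array labelled Arp8 overexpression lay between these. Of 31 members 26 had a ratio to wild-type above 0, against 54.8% of all genes, and the median was 0.26 against 0.03. Beyond 1.5-fold, 5 were higher, against 5.14%, and 0 lower, against 4.90%. These were *CD82*, *TP53INP1*, *TP53I3*, *PHLDA3* and *TNFRSF10B*, of which the last was inside 1.5-fold with normexp, at 0.57, and with its brightest probe, at 0.37. Beyond 2-fold, the 2 higher ones were *CD82* and *TP53INP1*, against 1.55% of all genes, and 0 were lower, against 1.48%. With normexp *TP53INP1* had 0.94, which left 1 higher.

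**Figure D1:**
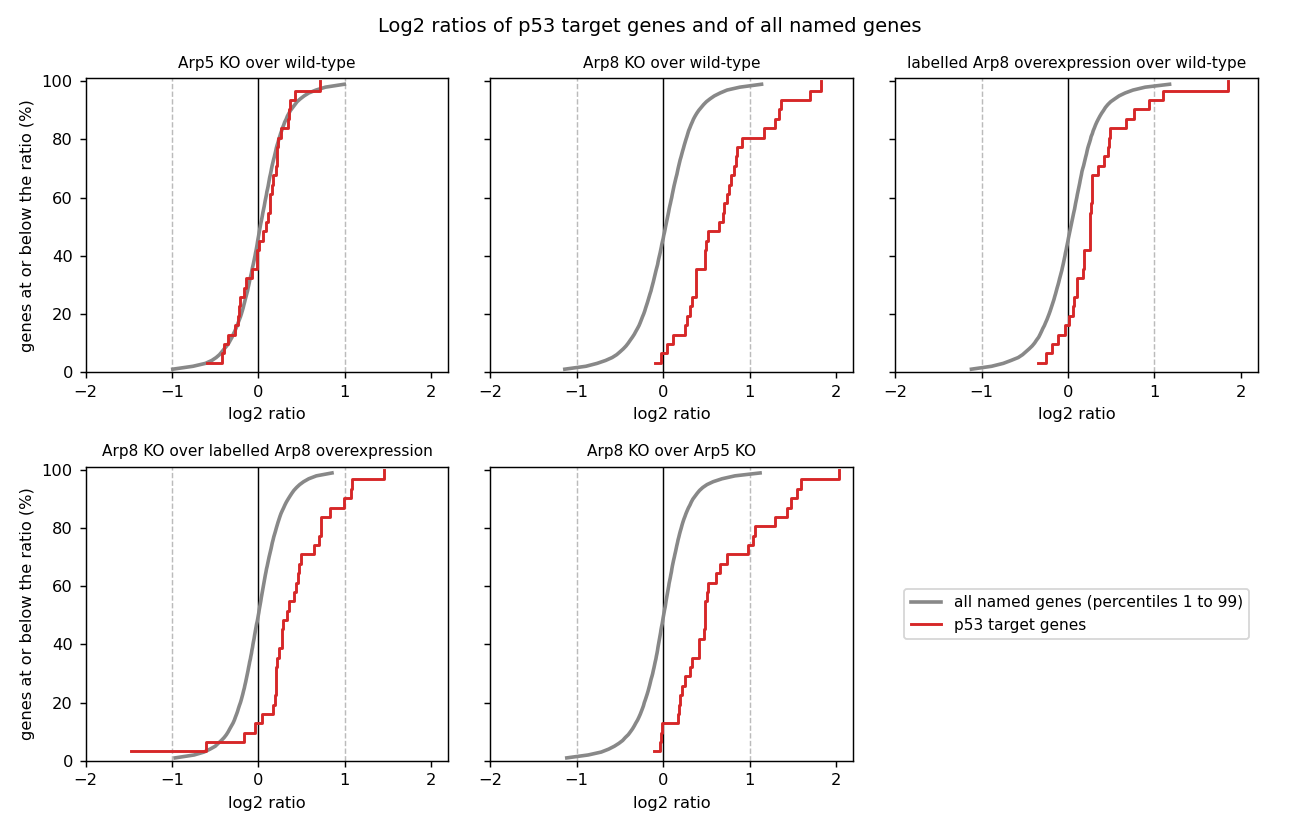
Share of genes (%, vertical axis) at or below each log2 ratio (horizontal axis) for 31 p53 target genes (red steps) and for all 12969 named genes (grey, percentiles 1 to 99), in 5 comparisons of single arrays. The curves overlie each other for Arp5 KO over wild-type, with medians of 0.09 and 0.02, and are apart for Arp8 KO over wild-type, with medians of 0.65 and 0.03.

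The Arp8 KO array was also set against the others, so that the wild-type array did not enter. Over the array labelled Arp8 overexpression, 27 of 31 members lay above 0, against 49.9% of all genes, and the median log2 ratio was 0.33 against 0.00. Beyond 1.5-fold, 9 were higher, against 2.98%, and *CD82* and *TP53I3* were lower, against 3.65%, the latter at -0.60 and just inside the threshold in the authors' table. Beyond 2-fold, *BBC3*, *SESN1* and *PHLDA3* were higher, against 0.617%, and *CD82* was lower, against 0.894%. *BBC3*, at 1.46 here, was inside 2-fold with the mean over its probes, at 0.93, and with the brightest one, at 0.06, and *SESN1* was inside it with normexp, at 0.97. Over Arp5 KO cells, a comparison added after the data had been seen, 27 of 31 lay above 0, against 50.8%, with a median of 0.48 against 0.00. Beyond 1.5-fold, 12 were higher, against 3.96%, and 0 lower, against 4.65%. Beyond 2-fold, 8 were higher, against 1.30%, and 0 lower, against 1.31%. With the brightest probe 6 were left, as *BBC3* had 0.05 and *FBXO22* 0.96, and with normexp also 6, as *FBXO22* had 0.86 and *TP53INP1* 0.94. The Arp8 KO array was the highest of the 4 for 25 of 31 members, as it was for 25.7% of all genes. The wild-type array was the highest for 0 members, against 23.9% of all genes. The Arp5 KO array was the highest for 2, against 23.3%, and the labelled array for 4, against 27.0%. In 22 members the labelled array lay between wild-type and Arp8 KO, with Arp8 KO highest, an order found in 20.6% of all genes.

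**Figure D2:**
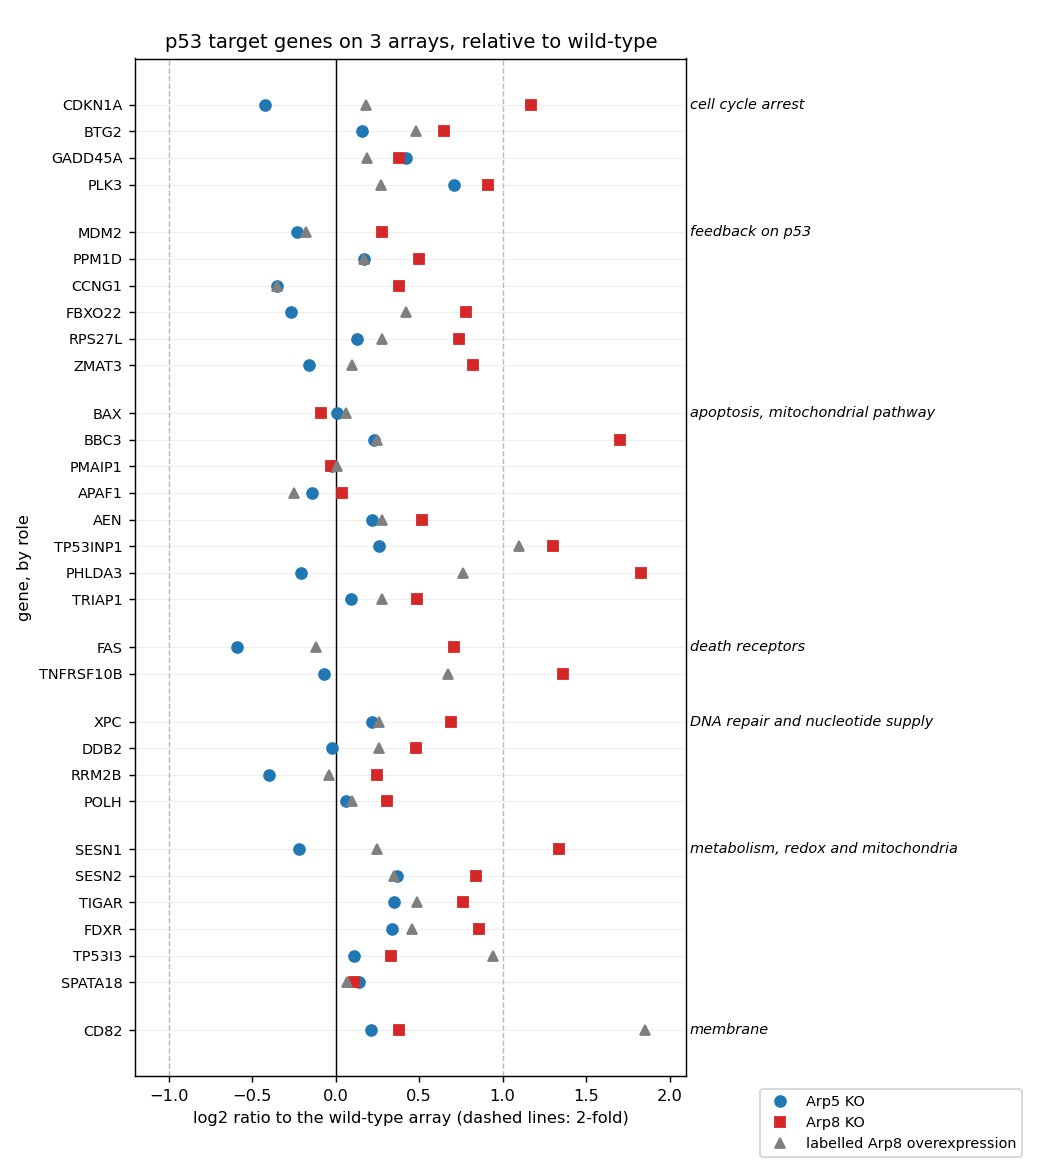
Log2 ratio to the wild-type array (horizontal axis) of the 31 measured p53 target genes, grouped by role, for Arp5 KO (blue circles), Arp8 KO (red squares) and the sample labelled Arp8 overexpression (grey triangles), 1 array each. The red squares reach from -0.09 to 1.83 and the blue circles from -0.59 to 0.71, and the grey triangle of *CD82* stands at 1.85.

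Among the genes of cell cycle arrest, *CDKN1A* encodes p21, the inhibitor of cyclin-dependent kinases. Its probe with 10 spots had 12254 units in wild-type cells, 9788 after Arp5 KO, 28545 after Arp8 KO and 14443 on the labelled array. The Arp8 KO array stood apart, and Arp5 KO lay below wild-type. The log2 ratio was 1.20 ± 0.0315 (SD over 10 spots) for Arp8 KO and -0.30 ± 0.0339 for Arp5 KO, and the lowest spot of the former was at 1.15. The other probe gave 1.14 and -0.53. *PLK3*, a stress-activated polo-like kinase, had 3370 units in wild-type cells, 5425 after Arp5 KO, 6426 after Arp8 KO and 4139 on the labelled array. It was higher beyond 1.5-fold in both KO cell lines. In Arp5 KO cells it was the 1 member so called, against 3.99% of all genes, and in Arp8 KO cells 1 of 16, against 5.12%. *BTG2*, an antiproliferative factor, had 5492, 6058, 8706 and 7770 units in that order, and *GADD45A*, a growth arrest protein induced by DNA damage, had 9226, 12120, 12150 and 10666. For *GADD45A* the KO lines differed from each other by a log2 ratio of -0.04, so that Arp8 KO was not set apart. *PLK2* was not well above background on any array, with signals from 1.80 to 3.92 units, and has no ratio.

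The members that feed back on p53 were all above wild-type in Arp8 KO cells, 6 of 6 against 54.1% of all genes, and 3 of them were beyond 1.5-fold, against 5.12%. *MDM2*, the ubiquitin ligase of p53, had 1932 units in wild-type cells, 1620 after Arp5 KO, 2379 after Arp8 KO and 1730 on the labelled array. The difference was modest, with a log2 ratio of 0.28 for Arp8 KO, and its 3 probes gave 0.20 to 0.28. *CCNG1*, cyclin G1, which recruits a phosphatase to MDM2, had 6806, 5244, 8975 and 5424 units in that order, so that Arp5 KO and the labelled array were both lower than wild-type, by log2 ratios of -0.35. *ZMAT3*, a zinc finger protein that binds RNA, had 181, 160, 323 and 197 units. *RPS27L*, a ribosomal protein relative that binds MDM2, had 21655, 23324, 36607 and 26685 units. For these genes the Arp8 KO array was the highest. *FBXO22*, a subunit of a ubiquitin ligase, had a log2 ratio of 0.78, from 0.75 and 0.82 by its 2 probes, and *PPM1D*, the phosphatase that acts on p53 and its kinases, one of 0.50.

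The members listed under mitochondrial apoptosis were divided. This is a broad group, and a member of it need not be a part of that pathway. *PHLDA3*, which competes with the kinase AKT for membrane lipids, had 918 units in wild-type cells, 784 after Arp5 KO, 3302 after Arp8 KO and 1576 on the labelled array. Its 3.55-fold ratio of Arp8 KO to wild-type was the largest of the 31 members. *BBC3*, which encodes the BCL2 antagonist PUMA, had 5154, 5943, 16989 and 6217 units in that order, a 3.26-fold ratio. Its 3 probes did not give one value. They gave log2 ratios of 1.70, 1.86 and 0.27, and the last came from the brightest probe, at 121960 units in wild-type and 148802 in Arp8 KO cells, with no spot marked as saturated. *TP53INP1*, a stress-induced partner of p53, had 660 units in wild-type and 781 in Arp5 KO, against 1651 in Arp8 KO cells and 1440 on the labelled array. The labelled array was thus close to Arp8 KO for this gene, with a log2 ratio of Arp8 KO to it of 0.20.

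At the level of the gene *PMAIP1*, *BAX* and *APAF1* stayed near wild-type. *PMAIP1*, which encodes the BCL2 antagonist NOXA, had 4371, 4252, 4338 and 4469 units in wild-type, Arp5 KO, Arp8 KO and labelled cells. Its ratio of Arp8 KO to wild-type was -0.03 ± 0.0253 (SD over 10 spots) on the log2 scale. *BAX*, the protein that forms pores in the mitochondrial membrane, had 9381, 9295, 8893 and 9942 units, but its probes disagreed. The probe with 10 spots gave -0.06 ± 0.0306 for Arp8 KO and -0.54 ± 0.0252 for the labelled array, and a further probe gave -0.84 and -1.18. *APAF1*, the scaffold of the apoptosome, had a log2 ratio of 0.04 in Arp8 KO cells. *AEN*, a nuclease that enhances apoptosis, and *TRIAP1*, an apoptosis inhibitor of mitochondria, had higher ratios of 0.52 and 0.49 there, both above the 0.22 and 0.09 in Arp5 KO cells.

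Both death receptors were higher in Arp8 KO cells. *TNFRSF10B*, a receptor of the ligand TRAIL, had 1406 units in wild-type cells, 1319 after Arp5 KO, 3655 after Arp8 KO and 2265 on the labelled array. Its 2 probes gave 1.34 and 1.39 for Arp8 KO, and 0.37 and 0.96 for the labelled array. *FAS*, the receptor of FAS ligand, had 435, 285, 720 and 407 units in that order. The KO lines lay on opposite sides of wild-type, with log2 ratios of -0.59 ± 0.0489 (SD over 10 spots) for Arp5 KO and 0.71 ± 0.0513 for Arp8 KO. The highest spot of the former was at -0.51 and the lowest of the latter at 0.63, so that the spots did not overlap. The window of *FAS* printed above holds a site with 2 mismatches.

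**Figure D3:**
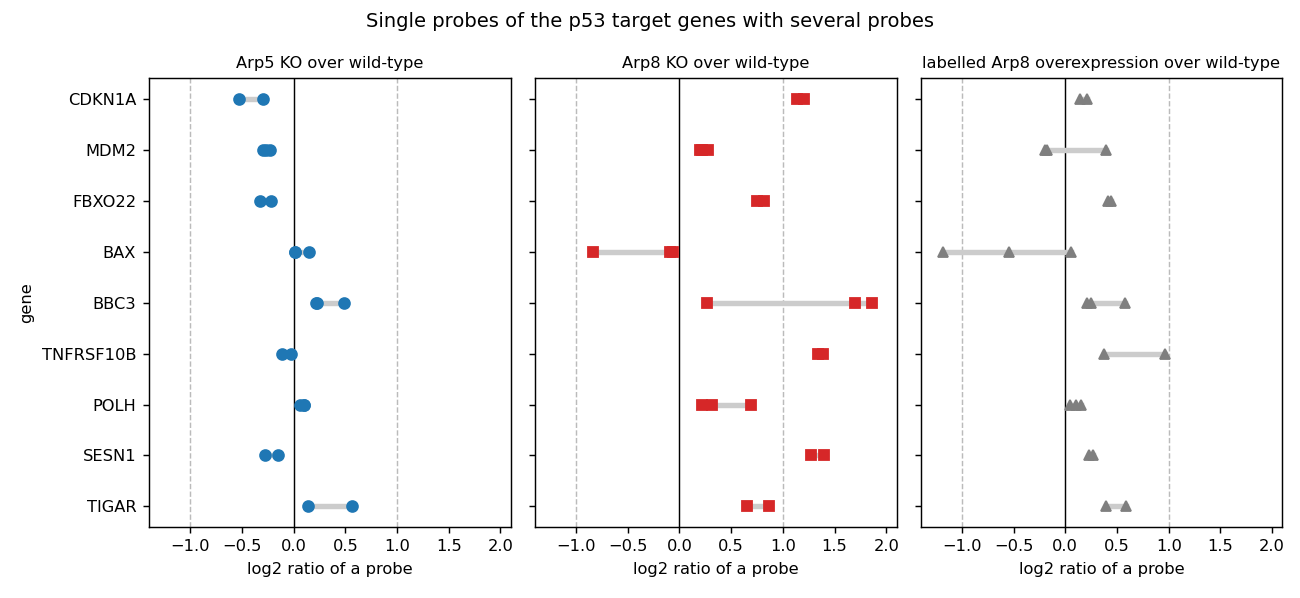
Log2 ratio to the wild-type array of each single probe (points, horizontal axis) of the 9 p53 target genes with several probes used, in 3 panels for Arp5 KO, for Arp8 KO and for the sample labelled Arp8 overexpression, with grey bars from the lowest to the highest probe. The probes of *CDKN1A*, *TNFRSF10B* and *SESN1* lie together in Arp8 KO cells, within 0.13 of each other, and those of *BBC3* spread from 0.27 to 1.86.

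The DNA repair genes lay closer to wild-type. *DDB2* and *XPC* recognize damage in nucleotide excision repair. *DDB2*, with the closest p53 site among the member windows searched, had 19050 units in wild-type cells, 18536 after Arp5 KO, 26804 after Arp8 KO and 23103 on the labelled array. *XPC* had 1372, 1568, 2245 and 1664 units in that order. It was the 1 gene of the 4 in this group higher beyond 1.5-fold in Arp8 KO cells, against 5.12% of all genes. *POLH*, a polymerase that copies past lesions, and *RRM2B*, a ribonucleotide reductase subunit, had log2 ratios of 0.31 and 0.25 in Arp8 KO cells. The 3 probes of *POLH* gave 0.22, 0.31 and 0.69, and the brightest gave the last, beyond 1.5-fold. All 4 were above wild-type there, against 54.1% of all genes. In Arp5 KO cells the group reached from -0.40 for *RRM2B* to 0.22 for *XPC*.

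Of the genes of metabolism, 4 of 6 were higher beyond 1.5-fold in Arp8 KO cells, against 5.12% of all genes, and 6 had a ratio above 0, against 54.1%. *SESN1* and *SESN2* encode sestrins, which restrain mTORC1 signaling. *SESN1* had 462 units in wild-type cells, 391 after Arp5 KO, 1181 after Arp8 KO and 558 on the labelled array. Its probes gave 1.27 and 1.40 for Arp8 KO. *SESN2* had 964, 1224, 1741 and 1249 units in that order, so that, unlike *SESN1*, it lay above wild-type on all 3 arrays. *FDXR*, which passes electrons to mitochondrial ferredoxin, had 18358, 22908, 33749 and 25572 units. *TIGAR*, which draws sugar phosphates away from glycolysis, had a log2 ratio of 0.76 in Arp8 KO, 0.35 in Arp5 KO cells and 0.49 on the labelled array. These genes shared the order in which Arp8 KO was highest.

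*TP53I3* and *CD82* had another order. *TP53I3*, a quinone oxidoreductase, had 1025 units in wild-type cells, 1092 after Arp5 KO, 1307 after Arp8 KO and 1994 on the labelled array. *CD82*, a tetraspanin of the cell membrane, had 1106, 1258, 1461 and 4049 units in that order. Both were highest on the array labelled Arp8 overexpression, *CD82* by a 3.60-fold ratio to wild-type, while its ratio of Arp8 KO to wild-type was 1.30-fold. *SPATA18*, a protein of mitochondrial quality control, was measured by 1 of its 3 probes and had at most 27.3 units on any array. Its log2 ratios of 0.07 to 0.14 were smaller than the technical SD of such dim probes.

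Genes that act on p53 were compared as a list of 22 regulators, of which 21 were measured. In Arp8 KO cells 4 lay above 0, against 54.1% of all genes, and 17 below, with a median log2 ratio of -0.09. With the brightest probe of each gene 8 lay above 0 and 13 below. In Arp5 KO cells 11 lay above 0, against 53.7%, with a median of 0.01, and on the labelled array 7, against 54.8%, with a median of -0.07. On these 3 arrays 0 regulators were beyond 1.5-fold of wild-type at the level of the gene, where 3.32% to 5.14% of all genes were in each direction. Single probes of some regulators were beyond it. *MDM4*, the partner of MDM2, had 350 units in wild-type cells, 363 after Arp5 KO, 327 after Arp8 KO and 366 on the labelled array. *CDKN2A*, whose product ARF inhibits MDM2, had 685, 691, 471 and 552 units in that order by 1 probe, while its other probe was not above background on any array. Whether the former probe reads the ARF transcript was not examined. *HIPK2*, a kinase of p53, had 2885, 2860, 2110 and 2110 units. Of its 4 probes 1 gave -0.62 in Arp8 KO cells and -0.63 on the labelled array. The median of the regulators was below that of the targets on all 3 arrays, with 0.01 against 0.09 in Arp5 KO cells. The sign of the regulator median in Arp5 KO cells changed under some other scalings between arrays.

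A further list of 42 targets, of which 30 were measured, lay closer to all genes. In Arp8 KO cells 24 of 30 had a ratio to wild-type above 0, against 54.1% of all genes, with a median of 0.24. Beyond 1.5-fold, 4 were higher, against 5.12%, and 1 was lower, against 5.10%. The higher ones were *DRAM1*, *SERTAD1*, *RETSAT* and *LIF*, and the lower one was *NINJ1*. Of these, *SERTAD1*, *RETSAT* and *NINJ1* are named after their values were seen. *DRAM1*, a lysosomal protein of autophagy, had 442 units in wild-type cells, 496 after Arp5 KO, 891 after Arp8 KO and 413 on the labelled array. It was the 1 gene of this list beyond 2-fold between Arp8 KO and the labelled array, with a 2.17-fold ratio, where 0.617% of all genes were higher. *GADD45B*, a relative of *GADD45A*, had 1170, 2422, 1367 and 1296 units in that order and was thus high in Arp5 KO cells. *LIF*, a cytokine, had 20.1, 10.7, 31.2 and 15.9 units, in the range of the largest technical error, and its other probe, above background in wild-type cells only, fell from 18.6 to 4.08 units in Arp8 KO cells. In Arp5 KO cells the median of the list was 0.09, with 17 of 30 above 0, against 53.7% of all genes. On the labelled array the median was 0.13, with 20 of 30 above 0, against 54.8%. With normexp the labelled-array median was 0.04, with 17 of 30 above 0. Without the filter on dim probes the Arp5 KO median was -0.02, with 20 of 38 below 0. The filter left out *TNFRSF10A*, which was above background on all arrays but Arp5 KO. *GDF15* was left out because it had no usable value after Arp5 KO, so whether it was above background there is not known. Both are named after their values were seen. *TNFRSF10A*, a further TRAIL receptor, had 83.7, 7.73, 115 and 77.6 units, and *GDF15*, a stress cytokine, had 59.9 in wild-type cells and no value after Arp5 KO.

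Of the genes repressed through p21 and DREAM, 27 of 27 were measured. In Arp8 KO cells 24 of them had a ratio to wild-type below 0 and 3 above, where 54.1% of all genes lay above, with a median log2 ratio of -0.20. Against the array labelled Arp8 overexpression 27 of 27 lay below, with a median of -0.19, where 49.9% of all genes lay above 0. The ratios were between -0.71 and 0.05 in the former comparison, with *BUB1B* at -0.71 and *PLK4* at -0.67 lower beyond 1.5-fold, against 5.10% of all genes, and between -0.53 and -0.04 in the latter, with 0 genes beyond 1.5-fold. In Arp5 KO cells 19 lay below wild-type, with a median of -0.09, where 53.7% of all genes lay above. On the labelled array 11 lay below wild-type, where 54.8% of all genes lay above. The median there was 0.02 and was below 0 under some other scalings, quantile normalization among them. *BUB1B*, a kinase of the spindle checkpoint, had 12914 units in wild-type cells, 9051 after Arp5 KO, 7999 after Arp8 KO and 10465 on the labelled array. *PLK4*, the kinase of centriole duplication, had 818, 636, 520 and 752 units in that order, and *TTK*, a further checkpoint kinase, had 3494, 2507, 2401 and 2764.

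**Figure D4:**
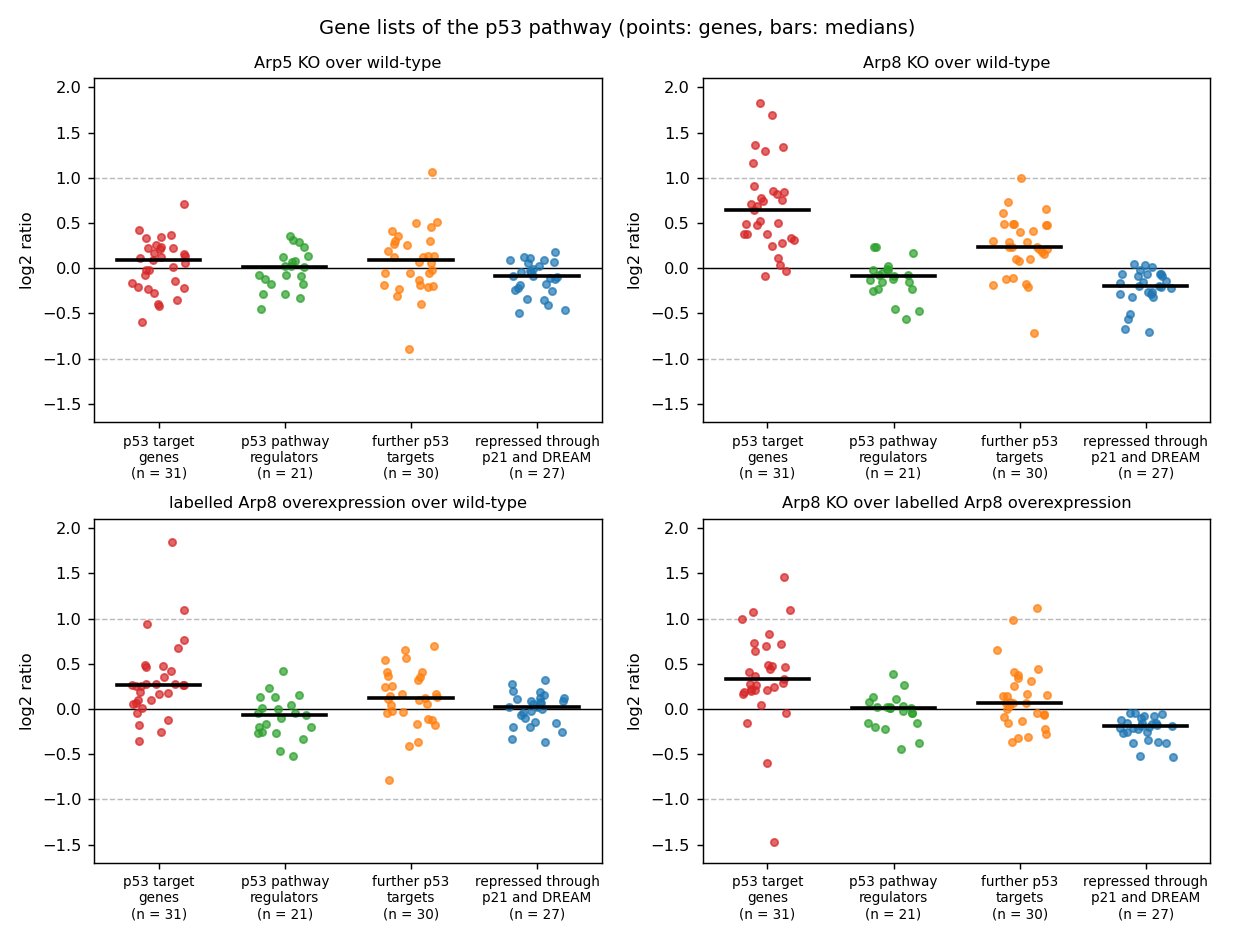
Log2 ratios (vertical axis) of single genes (points) with the median (bar) for p53 target genes, p53 pathway regulators, further p53 targets and genes repressed through p21 and DREAM, in 4 comparisons of single arrays. In the panel of Arp8 KO over wild-type the medians are 0.65, -0.09, 0.24 and -0.20.

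Markers of cell types were measured on the same arrays. All 10 pre-B cell markers were well above background, with *IGLL1* the brightest. *VPREB1* was lower beyond 1.5-fold in Arp8 KO cells, at -0.61, and the 3 probes of *IGLL1* gave -0.51, -0.06 and -0.01 there. The summed signal of the list, which *IGLL1* weighs on most, was 300572 units in wild-type cells, 314305 after Arp5 KO, 299723 after Arp8 KO and 329166 on the labelled array. Of 5 myeloid markers 4 were measured, all except *MPO*, with *CD14* the brightest, and their summed signal was 224 units in wild-type and 210 in Arp5 KO, against 356 in Arp8 KO cells and 330 on the labelled array. *LYZ*, lysozyme, had 55.4, 46.3, 143 and 140 units in wild-type, Arp5 KO, Arp8 KO and labelled cells. *ITGAM* had 38.4, 28.4, 74.8 and 55.2 units and *CSF1R* 11.1, 11.0, 16.2 and 25.3 in that order. Beyond 1.5-fold of wild-type were *LYZ* on the Arp8 KO and labelled arrays, *ITGAM* on the former and *CSF1R* on the latter, all dim. *CD14* was on neither, with 119, 124, 123 and 110 units. Their part in the result was not tested. Of the T cell markers 2 of 4 were measured, *CD2* and *CD3E*, with sums from 56.6 to 62.4 units, while *CD3D* and *CD3G* were not well above background. Of the NK cell markers 1 of 3 was measured, *NKG7*, with 325, 459, 245 and 264 units. The erythroid list gave 1 of 3, *ALAS2*, at 21.3 units in wild-type cells, with ratios on the log2 scale of 0.00, 0.21 and 0.14 after Arp5 KO, after Arp8 KO and on the labelled array, the fibroblast list 0 of 3, and the epithelial list 2 of 3, with *KRT8* the brightest and sums from 881 to 1099 units. Of these *KRT18* was lower beyond 1.5-fold on the labelled array, at -0.89, and had -0.49 in Arp8 KO cells. In RNA of whole cultures, fewer cells of a type and less RNA per cell cannot be told apart.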

How the data were processed

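The authors deposited the scanner output of each array (Agilent Feature Extraction 10.5.1.1, array design on genome build hg18), in which the processed signal is a linear intensity after subtraction of the background, without scaling from array to array, and a table of these intensities times 1 factor per array. Of 43376 spots other than controls, 31188 (wild-type), 31420 (Arp5 KO), 30394 (Arp8 KO) and 30803 (labelled array) were well above background. None was saturated. From the log2 signal the array's 75th percentile was subtracted, outlier spots were left out, and spots of a probe were averaged. A probe was well above background when most of its spots were. A gene's level is the median over its probes well above background on all 4 arrays. Transcript accessions were matched to GRCh38.p14 gene names for 26222 of 41000 probes (64.0%), and promoter sequences are from RefSeq. Of the other lists, up to 3 genes with the largest ratio to wild-type are named, plus *MDM4* and the targeted genes, and 1 gene that the rule names is not reported here. The members and lists were chosen with earlier results of these data known. Python 3.11.15, numpy 2.4.6, pandas 2.3.3, matplotlib 3.10.9, R 4.3.3 and limma 3.58.1 (normexp) were used. The calls beyond 2-fold were also run on simulated data, whose outcome is not given here and is no replicate check of these differences. Alternatives were other scalings, background corrections, filters, probe summaries and fold thresholds.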

Additional observations from a re-analysis of the deposited data

Results flagged for a closer look

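*FAS* was the only one of the 31 members that was beyond 1.5-fold of wild-type in opposite directions on 2 arrays. The share of all genes with such opposite calls was not counted, so the number says nothing about the members as a set. The log2 ratio to wild-type was 0.71 in Arp8 KO and -0.59 in Arp5 KO cells, a difference of 1.30. The Arp5 KO value lay at the threshold and was inside it with normexp, at -0.49. It rests on 1 probe with 10 spots and on 1 array per genotype, and the difference was not tested.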

How the results depend on the processing

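No paired analysis was possible because no genotype has a second array. The 6 members higher beyond 2-fold in Arp8 KO over wild-type were 6 under other scalings and filters, and 5 with the brightest probe of each gene, where *BBC3* had 0.27. The median of the members in that comparison was between 0.59 and 0.66, with 0.59 when dim probes were not filtered, which adds *PLK2*. It was between 0.03 and 0.11 for Arp5 KO over wild-type, 0.21 and 0.28 for the labelled array over wild-type, 0.31 and 0.35 for Arp8 KO over the labelled array, and 0.46 and 0.52 for Arp8 KO over Arp5 KO. With the threshold at 1.5-fold the members higher and lower were 1 and 1 in Arp5 KO over wild-type and 9 and 2 in Arp8 KO over the labelled array, and the members higher were 16 in Arp8 KO and 5 on the labelled array over wild-type. At this threshold normexp left 0 lower in Arp5 KO over wild-type, since *FAS* had -0.49, and no filter gave 3, *SPATA18* with -0.63 among them, as well as 1 lower in Arp8 KO and 2 on the labelled array over wild-type in place of 0. Without a filter the *SPATA18* value comes from a probe not above background, and the share of all genes lower at this threshold was not counted. The share of all genes higher beyond 1.5-fold moved too. In Arp5 KO, Arp8 KO and labelled cells over wild-type it was 7.2%, 7.04% and 7.88% without a filter, and 1.95%, 2.66% and 2.6% with normexp. With normexp 17 were higher in Arp8 KO over wild-type in place of 16. The authors' table left 1 lower in Arp8 KO over the labelled array, without *TP53I3*. Normexp and the brightest probe each left 4 higher on the labelled array, since *TNFRSF10B* had 0.57 and 0.37. At 3-fold, 2 were higher in Arp8 KO over wild-type, against 0.409% of all genes, 2 in Arp8 KO over Arp5 KO, against 0.393%, 1 on the labelled array over wild-type, against 0.44%, and 0 higher and 0 lower in Arp8 KO over the labelled array, against 0.0771% and 0.162%. On the labelled array over wild-type, normexp left 1 member higher in place of 2, since *TP53INP1* had 0.94, and without a filter 1 was lower, *PLK2*. The cause was not tested. Of 1840 values of single members under an alternative, 1825 kept their side of the 2-fold threshold, 10 fell inside it, 5 passed it and 0 changed sign from a value beyond it. Most of these values were inside the threshold in the main processing too, so the 1825 say little about the members beyond it. In Arp8 KO over the labelled array and over Arp5 KO, *BBC3* fell inside it with the mean over probes, at 0.93 and 0.96, and with the brightest probe, at 0.06 and 0.05. Of the 5 values that passed it, 2 did so under quantile normalization. Without scaling, in the authors' table and with the percentile over probes well above background, 1 value each did. *CDKN1A* in Arp8 KO over the labelled array passed it under quantile normalization, at 1.02. Normexp lowered the genes beyond 2-fold in Arp8 KO over wild-type from 189 higher and 184 lower to 67 and 109, a share of higher genes of 38.1% in place of 50.7%. Genes repressed through p21 and DREAM had medians between -0.22 and -0.16 in Arp8 KO over wild-type, with 24 or 25 of 27 below 0. On the labelled array their median was between -0.04 and 0.05, and that of the regulators in Arp5 KO was between -0.03 and 0.03. The median of probe ratios, the limit of 500 units and the comparison with Arp5 KO were chosen after seeing the data. Naming by a gene symbol column was not run. Normexp was run on the median signal. Ratios under 50 units are limited by signal over background.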

Other observations

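Probes of some members differed beyond the spread of their spots. The 2 *BAX* probes matched to one transcript variant gave log2 ratios of -0.54 and -1.18 for the array labelled Arp8 overexpression over wild-type, and the probe matched to another variant gave 0.06. In Arp8 KO cells the same probes gave -0.06, -0.84 and -0.09. The *MDM2* probe with repeated spots, at 127 units in wild-type cells, gave 0.38 ± 0.0581 (SD over 8 spots) on the labelled array, where the others gave -0.20 and -0.18. *INO80*, the gene for the ATPase of the complex, had 2459 units in wild-type cells, 4461 after Arp5 KO, 5143 after Arp8 KO and 3012 on the labelled array.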
